A study of Homo sapiens with 6 samples.

Results

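Aminoacyl-tRNA synthetases are the enzymes that join each amino acid to its tRNA, and 36 of their genes were followed here in HL60 cells with and without targeting of the gene SKI. The genes were taken by name from a list of 20 cytosolic and 16 mitochondrial enzymes, out of 56638 gene names in the count table. All 36 were found and all 36 had enough reads to be among the 16340 genes tested. SKI encodes a transcriptional co-repressor, and HL60 cells, which resemble promyelocytes, were derived from an acute myeloid leukaemia. Polyadenylated RNA was sequenced from 3 libraries of an HL60 line with CRISPR/Cas9-mediated deletion of SKI (the line numbered 3) and 3 libraries of a CRISPR/Cas9 control HL60 line (the line numbered 1). All libraries came from cells grown in RPMI with 10% serum and no further treatment is given. Each group is 1 line, so the effect of SKI and any other difference between the lines cannot be told apart. The labels do not call the replicates separate cultures, so p-values cover only how far these libraries spread, which may be technical.

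Each library held 47930276 to 58553247 counts, and values are CPM, counts scaled to library size with TMM, a correction for composition. SKI itself stood at 63.9, 83.5 and 88.5 CPM in control replicates 1 to 3 and at 59.5, 40.7 and 42.0 CPM in the knockout (edgeR quasi-likelihood test, log2 fold change -0.73, SE 0.19, adjusted p = 0.0282). Of 8 listed markers of myeloid blasts 7 were tested and 5 fell, against 5.63% lower of all genes. Among them was MPO, with means of 12746 ± 1184 and 4854 ± 3218 CPM (SD, n = 3 each). ELANE, a defining granule protease of promyelocytes, was at or near 0. With the median of its chromosome subtracted from every gene, 4 markers were called lower. CD33 and CTSG were then no longer called, and MYB was. The sum of the myeloid markers was 12533 to 14871 CPM in the control and 3090 to 9239 CPM in the knockout, and its part in the synthetase values was not tested. Summed markers were 1.67 to 6.13 CPM for lymphoid cells, of which CD79A rose and CD2 fell, 2.99 to 10.1 CPM for epithelial cells and fibroblasts, mostly KRT8, and at most 0.041 CPM for erythroid cells. The markers of these other cell types thus carried few reads beside the synthetases, whose sum was between 8178 and 9091 CPM per library.

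In the cytosol, each synthetase serves the ribosomes that translate nuclear mRNAs, and in the mitochondrion a second set, imported from the cytosol, serves the translation of the respiratory chain subunits encoded there. By the fold of the catalytic domain the enzymes fall into class I and class II. Several of the cytosolic ones are held together in a multi-synthetase complex on the scaffold proteins AIMP1, AIMP2 and EEF1E1. Many cytosolic synthetase genes are known targets of ATF4, the transcription factor of the amino acid response, which acts through a composite element shared with C/EBP proteins. GARS and KARS each supply the cytosol and the mitochondrion from 1 gene, and they are counted here as cytosolic by their names.

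The letters of that composite element were found mostly at cytosolic promoters, a count given without a test, and the matching stretches are shown before the values. Promoter windows of 300 bases, from 250 before to 50 after the annotated start, were taken from RefSeq on GRCh38.p14, and 30 of the 36 genes had one. The genes not matched were DARS, LARS, VARS, YARS, AARS2 and VARS2. The letters TGATGCAA, on either strand, were in 6 of 16 cytosolic promoters (37.5%) and in 0 of 14 mitochondrial ones, against 0.866% of all 35116 RefSeq promoters of this length. With the looser TGATGNAA, of which TGATGCAA is a case, there were 6 of 16 cytosolic and 1 of 14 mitochondrial promoters, against 3.62% of all promoters. In the list of ATF4 response genes used further on, 26 had a promoter entry, of which 1 held TGATGCAA and 5 held TGATGNAA. The following 30-base stretches run 5′ to 3′ on the strand of the gene, with the match in capitals and 11 bases on either side. TTGCATCA is TGATGCAA read on the opposite strand.
AARS: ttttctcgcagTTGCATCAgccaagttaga
CARS: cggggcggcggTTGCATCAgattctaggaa
IARS: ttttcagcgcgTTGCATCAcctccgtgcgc
MARS: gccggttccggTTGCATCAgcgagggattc
NARS: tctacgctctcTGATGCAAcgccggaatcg
TARS: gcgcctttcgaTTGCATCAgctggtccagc
YARS2: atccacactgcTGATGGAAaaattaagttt
In the genome these stretches lie at chr16:70289675-70289704 on the minus strand for AARS, chr11:3057407-3057436 on the minus strand for CARS and chr9:92293692-92293721 on the minus strand for IARS. Those of MARS at chr12:57488053-57488082 and TARS at chr5:33440956-33440985 are on the plus strand. Those of NARS at chr18:57621804-57621833 and YARS2 at chr12:32756076-32756105 are on the minus strand. Counted with the annotated start as 0, the first base of the match lay at -187 in AARS, -13 in IARS, -4 in MARS, -2 in CARS, 2 in TARS and 14 in NARS, so that 5 of the 6 sat within 14 bases of the start, and at -197 in YARS2. A match is a description of the letters and does not show a bound factor.

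Of the 36 synthetase genes, 1 rose and 2 fell in the knockout, and 33 did not pass the test. WARS, the cytosolic tryptophan enzyme, was 1.85-fold higher, FARSA, a subunit of the cytosolic phenylalanine enzyme, was 2.12-fold lower, and SARS2, the mitochondrial serine enzyme, was 1.89-fold lower. The test was edgeR's quasi-likelihood F test over all genes with an adjusted p under 0.05. Over all 16340 genes it called 11.8%, with 6.19% higher and 5.63% lower, and the 3 of 36 called here are 8.33%. The share of synthetase genes called was thus no larger than the share of all genes called. At an unadjusted p under 0.05 there were 9 of 36 (25.0%), 4 higher and 5 lower, against 27.1% of all genes, 14.1% higher and 13.0% lower.

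**Figure D1:**
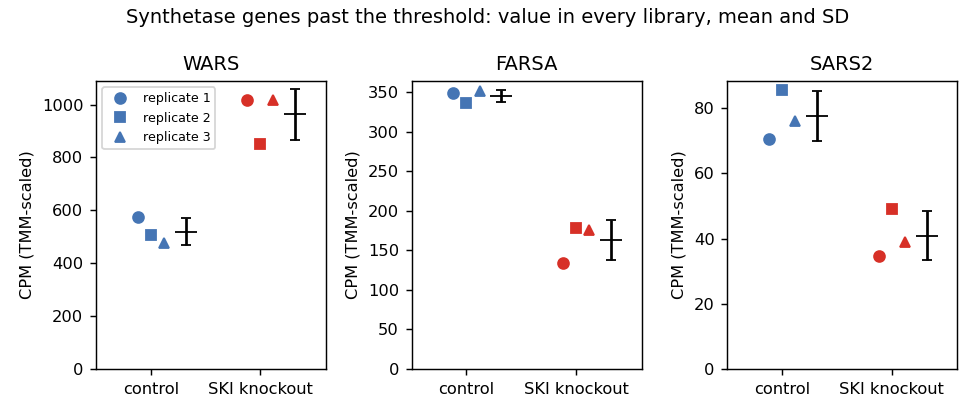
CPM (vertical axis, from 0) of WARS, FARSA and SARS2 in each of the 3 control and 3 knockout libraries, with marker shape for the replicate number and the mean with SD in black. Knockout values of WARS lie above and those of FARSA and SARS2 below all control values.

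WARS was at 575, 508 and 475 CPM in the control and 1018, 852 and 1019 CPM in the knockout. Every knockout library was above every control library. The means were 519 ± 51.1 and 963 ± 96.3 CPM (SD, n = 3 each), a difference of 0.89 on the log2 scale (SE 0.17, edgeR adjusted p = 0.00709). The gene is also known as a target of interferon, and its product can act outside the cell. Without control replicate 3 the log2 fold change was 0.83 and the edgeR adjusted p was 0.0559, so that the gene did not pass. WARS lies on chromosome 14, whose median log2 fold change was -0.19, and after subtraction of the chromosome median from every gene it was at 1.07 (edgeR adjusted p = 0.00317). Exons of WARS overlap WDR25 on the opposite strand, and WDR25 was counted at a mean of 7.12 CPM in the control and 10.5 CPM in the knockout, far below WARS. The WARS promoter window held no TGATGNAA.

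FARSA was at 349, 337 and 351 CPM in the control and 135, 179 and 176 CPM in the knockout. The groups were far apart, and the control libraries were close to each other. The means were 346 ± 7.71 and 163 ± 24.8 CPM (SD, n = 3 each), a log2 fold change of -1.08 (SE 0.16, edgeR adjusted p = 0.00194). FARSA encodes the catalytic alpha subunit of an enzyme whose other subunit is encoded by FARSB. FARSB was at 119, 125 and 115 CPM in the control and 106, 132 and 109 CPM in the knockout, and its groups overlapped (log2 -0.05, SE 0.15, edgeR adjusted p = 0.869). The ratio of FARSA to FARSB counts within a library was 2.92, 2.69 and 3.06 in the control and 1.27, 1.35 and 1.62 in the knockout. In every knockout library the ratio was below that of every control library, a description that adds no test to that of FARSA.

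SARS2 was at 70.6, 85.7 and 76.1 CPM in the control and 34.8, 49.1 and 38.8 CPM in the knockout. All knockout values were below all control values. The means were 77.5 ± 7.64 and 40.9 ± 7.40 CPM (SD, n = 3 each), a log2 fold change of -0.92 (SE 0.17, edgeR adjusted p = 0.00533). Its cytosolic counterpart SARS was at 307, 262 and 312 CPM in the control and 254, 349 and 508 CPM in the knockout, with overlapping groups (log2 0.33, SE 0.23, edgeR adjusted p = 0.378). Counts of SARS over those of SARS2 were 4.35, 3.06 and 4.10 in the control and 7.31, 7.11 and 13.1 in the knockout, given as values with no test. Of its 3231 exonic bases, SARS2 shares 1492 with AC011455.2, a gene on the same strand, whose counts were not analysed here. It shares 349 on the opposite strand with MRPS12, a mitochondrial ribosomal protein gene whose mean went from 72.1 to 43.2 CPM (log2 -0.74, edgeR adjusted p = 0.0140). The strand setting of the counting is not given, so reads of the shared exons cannot be assigned to either gene.

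The called decreases are both on chromosome 19, whose genes were lower in the knockout at the median. The median difference on the log2 scale was -0.48 over 682 genes of chromosome 19 and 0.43 over 510 genes of chromosome 6. VARS, AARS2, FARS2, RARS2 and VARS2 lie on chromosome 6. With each gene centred on its chromosome, FARSA stood at -0.61 (edgeR adjusted p = 0.0336) and SARS2 at -0.44, with its call lost (adjusted p = 0.142). On chromosome 6, the mitochondrial valine enzyme gene VARS2 went from -0.08 to -0.52 (adjusted p = 0.0343) and RARS2, for mitochondrial arginine, from 0.48 to 0.04. The other 3 genes there, VARS, AARS2 and FARS2, were at -0.56, -0.50 and -0.25 with centring, and none of them passed. Of its 8448 exonic bases, VARS2 shares 1858 with GTF2H4, a gene on the same strand. GTF2H4 was at 0.37 on the log2 scale as fitted and at -0.07 with centring. How reads of the shared exons were counted is not given. IARS, for isoleucine, lies on chromosome 9, with a median of -0.23, and went from 0.18 to 0.41 without passing. CARS2, for mitochondrial cysteine, lies on chromosome 13 and moved little, from -0.44 to -0.49, but crossed the threshold (adjusted p = 0.0439). With centring, 1 cytosolic and 0 mitochondrial genes were higher and 1 cytosolic and 2 mitochondrial genes lower, against 5.05% higher and 3.37% lower of all genes.

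**Figure D2:**
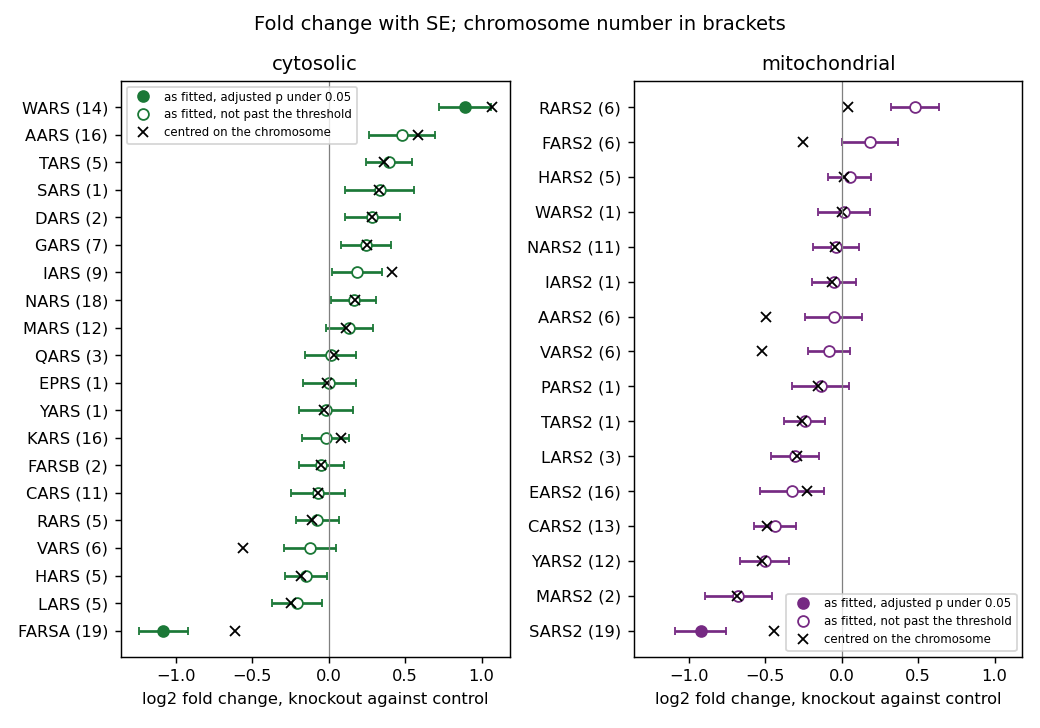
Log2 fold change of each synthetase gene (horizontal axis) with its SE, filled where the adjusted p was under 0.05, and a cross for the value centred on its chromosome; the chromosome is in brackets. FARSA and SARS2 on chromosome 19 move toward 0 with centring, and the 5 genes on chromosome 6 move to lower values.

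The cytosolic and the mitochondrial genes were set against each other as groups, which is a description and was not tested. The median log2 fold change was 0.01 for the 20 cytosolic genes, -0.11 for the 16 mitochondrial genes and -0.01 for all genes tested. Of the cytosolic genes 11 had a positive and 9 a negative value, and of the mitochondrial genes 4 had a positive and 12 a negative value, against 8034 and 8306 of all genes. With chromosome centring the medians were 0.06 and -0.25, beside 0.00 for all genes, and 3 mitochondrial genes were positive and 13 negative. Leaving out the genes on chromosomes 6 and 19 gave medians of 0.07 over 18 cytosolic and -0.24 over 11 mitochondrial genes. Without single libraries the mitochondrial median ran from -0.18 (without control replicate 2) to -0.07 (without control replicate 3 or knockout replicate 3), and the cytosolic one from -0.02 to 0.12. These medians are given as values, and the part of the chromosome shifts in them was not tested beyond the centring.

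Summed over the 20 cytosolic genes, the libraries held 7384, 7347 and 7264 CPM in the control and 7659, 8295 and 8271 CPM in the knockout. Summed over the 16 mitochondrial genes they held 884, 890 and 914 CPM in the control and 778, 796 and 709 CPM in the knockout. The cytosolic sum was higher and the mitochondrial sum lower in every knockout library than in every control library. WARS added 444 CPM to the difference of 743 CPM between the cytosolic means, which is 59.7% of it. Without WARS the cytosolic sums were 6809, 6839 and 6789 CPM in the control and 6641, 7443 and 7252 CPM in the knockout, so that the groups overlapped and their separation rested on that gene. Of the cytosolic genes 5 had all knockout values above all control values and 2 had them all below, and of the mitochondrial genes these numbers were 1 and 6. Over all genes 16.0% were above and 16.1% below in this sense.

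**Figure D3:**
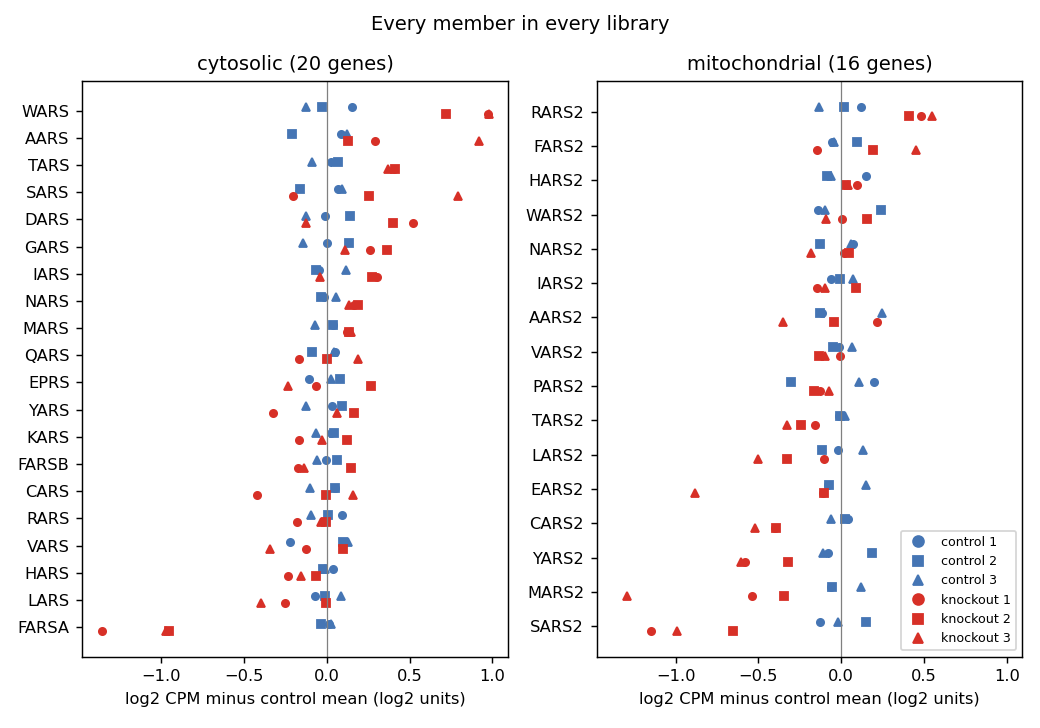
Log2 CPM of each gene in each library minus its control mean (horizontal axis, log2 units), with colour for the group and shape for the replicate number. Many cytosolic genes lie around 0 in both groups, while the 6 mitochondrial genes without overlap in the lower direction lie to the left of their controls.

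Among cytosolic genes that did not pass, those with the larger positive values were AARS, TARS, SARS and DARS. AARS, for alanine, was at 367, 299 and 377 CPM in the control and 423, 377 and 653 CPM in the knockout, where replicate 3 was far above the others (log2 0.48, SE 0.21, edgeR adjusted p = 0.175). Without knockout replicate 3 its log2 fold change was 0.23. TARS, for threonine, was at 380, 392 and 351 CPM in the control and at 496, 497 and 484 CPM in the knockout, a tight group above all control libraries (log2 0.40, SE 0.15, edgeR adjusted p = 0.110). SARS had its spread between 254 and 508 CPM within the knockout alone. DARS, for aspartate, was at 109, 121 and 101 CPM in the control and 157, 145 and 101 CPM in the knockout. Its replicate 3 was level with the controls, and without that library DARS passed (log2 0.48, edgeR adjusted p = 0.0439).

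MARS and NARS, for methionine and asparagine, had small differences without overlap. MARS was at 612, 612 and 567 CPM in the control and 649, 655 and 660 CPM in the knockout (log2 0.13, SE 0.15). Exons of MARS overlap DDIT3 on the opposite strand, a stress gene that rose. NARS was at 449, 442 and 471 CPM in the control and 508, 517 and 498 CPM in the knockout (log2 0.16, SE 0.15). HARS, for histidine, was the other gene beside FARSA with all knockout values below, at 159, 152 and 154 CPM against 131, 148 and 139 CPM (log2 -0.15, SE 0.14). None of MARS, NARS and HARS passed the test, with edgeR adjusted p-values of 0.620, 0.523 and 0.525.

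The remaining cytosolic genes were within 0.25 of 0 on the log2 scale, with overlapping groups. GARS, for glycine, was at 0.24, IARS at 0.18, QARS, for glutamine, at 0.01 and EPRS, which joins glutamate and proline to their tRNAs in 1 protein, at 0.00. YARS and KARS, for tyrosine and lysine, were at -0.02, CARS and RARS, for cysteine and arginine, at -0.07, VARS, for valine, at -0.12 and LARS, for leucine, at -0.21. The 8 genes of the multi-synthetase complex, EPRS, LARS, IARS, MARS, QARS, RARS, KARS and DARS, ran from -0.21 to 0.29, with a median of 0.01 and none called. The 12 cytosolic genes outside it ran from -1.08 to 0.89 with a median of 0.07, and held both cytosolic calls. The 10 class I and 10 class II cytosolic genes had medians of -0.01 and 0.20, each with 1 call. Over all genes 11.8% were called, and the split of the 2 cytosolic calls between such small groups was not tested.

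The 6 cytosolic genes with TGATGCAA at their promoter, shown above, ranged from -0.07 to 0.48 with a median of 0.17. Of these 6, 5 had a positive value, 4 (AARS, MARS, NARS and TARS) had all knockout values above all control values, and none was called. The 10 cytosolic genes with a promoter entry and no such match ranged from -1.08 to 0.89 with a median of -0.01. Among those 10, 5 were positive, 1 had all knockout values above, and 2 were called. Over all genes 16.0% had every knockout value above every control value and 11.8% were called. Neither called cytosolic gene held the letters, while AARS and TARS, which did, had the largest positive values after WARS.

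Mitochondrial genes that came close to the threshold were mostly lower in the knockout. MARS2, for methionine, was at 54.1, 54.3 and 61.2 CPM in the control and 38.8, 44.5 and 23.0 CPM in the knockout (log2 -0.68, SE 0.22, edgeR adjusted p = 0.0660). CARS2 was at 137, 135 and 128 CPM in the control and 101, 101 and 93.0 CPM in the knockout (log2 -0.44, SE 0.14, edgeR adjusted p = 0.0599). YARS2, for tyrosine, was at 34.8, 41.8 and 34.1 CPM in the control and 24.5, 29.4 and 24.1 CPM in the knockout (log2 -0.50, SE 0.16, edgeR adjusted p = 0.0662). In all 3 genes the groups did not overlap. MARS2 was called in 4 of 14 alternatives and not in the others, with adjusted p-values from 0.00817 with no filter on low counts to 0.216 without control replicate 3. Its log2 fold change was -0.42 without knockout replicate 3, its lowest library, and -0.85 without knockout replicate 2. DESeq2's Wald test called MARS2, CARS2 and YARS2 with adjusted p-values of 0.0330, 0.0356 and 0.0412.

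TARS2 and EARS2, for threonine and glutamate, completed the set of lower values without overlap. TARS2 was at 78.8, 78.9 and 80.6 CPM in the control and 71.3, 67.0 and 63.2 CPM in the knockout (log2 -0.24, SE 0.14, edgeR adjusted p = 0.281). EARS2 was at 31.97, 32.09 and 37.5 CPM in the control and 31.3, 31.3 and 18.3 CPM in the knockout, so that its difference came mainly from replicate 3 (log2 -0.33, SE 0.21, edgeR adjusted p = 0.345). LARS2, for leucine, was at 48.8, 45.6 and 54.1 CPM against 45.8, 39.4 and 34.8 CPM, with groups that overlapped slightly (log2 -0.31, edgeR adjusted p = 0.239). RARS2 was the only mitochondrial gene with all knockout values above, at 18.3, 17.01 and 15.4 CPM against 23.6, 22.4 and 24.6 CPM (log2 0.48, SE 0.16, edgeR adjusted p = 0.0725), and DESeq2's Wald test called it (adjusted p = 0.0357). The value of RARS2 after centring on chromosome 6, 0.04, was close to that of no difference.

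The other 8 mitochondrial genes overlapped between groups. FARS2 and HARS2, for phenylalanine and histidine, were at 0.19 and 0.05 on the log2 scale, and WARS2, for tryptophan, at 0.01. NARS2, IARS2 and AARS2, for asparagine, isoleucine and alanine, were at -0.04, -0.05 and -0.05, VARS2 at -0.08 and PARS2, for proline, at -0.14. AARS2 had knockout values of 42.6, 35.7 and 28.7 CPM around control values of 33.9, 33.6 and 43.5 CPM. Class I mitochondrial genes had a median of -0.31 over 9 genes, and class II ones a median of -0.05 over 7 genes. With chromosome centring these medians were close to each other, at -0.29 and -0.25.

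For 15 amino acids the list holds a cytosolic and a mitochondrial enzyme, taking FARSA for phenylalanine and EPRS for glutamate. In 11 of the 15 pairs the cytosolic log2 fold change was above the mitochondrial one. The widest positive gaps were those of SARS and SARS2, at 1.26, WARS and WARS2, at 0.88, and MARS and MARS2, at 0.81. The 4 pairs in the other order were FARSA and FARS2 (-1.27), RARS and RARS2 (-0.55), HARS and HARS2 (-0.20) and VARS and VARS2 (-0.04). These gaps are as fitted, and several of the genes lie on chromosomes 6 and 19. With chromosome centring, SARS and SARS2 were at 0.33 and -0.44, and AARS and AARS2 at 0.58 and -0.50. FARSA and FARS2 were then at -0.61 and -0.25, and RARS and RARS2 at -0.11 and 0.04. The size of the gaps thus depends on the centring, while the same 11 pairs had the cytosolic value above the mitochondrial one. The rise of WARS had no counterpart in WARS2, which was at 20.5, 26.6 and 21.1 CPM in the control and 22.6, 25.1 and 21.1 CPM in the knockout. WARS counts over WARS2 counts were 28.1, 19.1 and 22.5 in the control and 45.0, 33.9 and 48.2 in the knockout, again as values with no test. HARS and HARS2 are arranged head to head, with promoter windows that overlap on opposite strands and exons that share bases, and neither passed the test. Of pseudogenes named after listed synthetases, 6 were in the count table, each with 0 counts in every library.

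**Figure D4:**
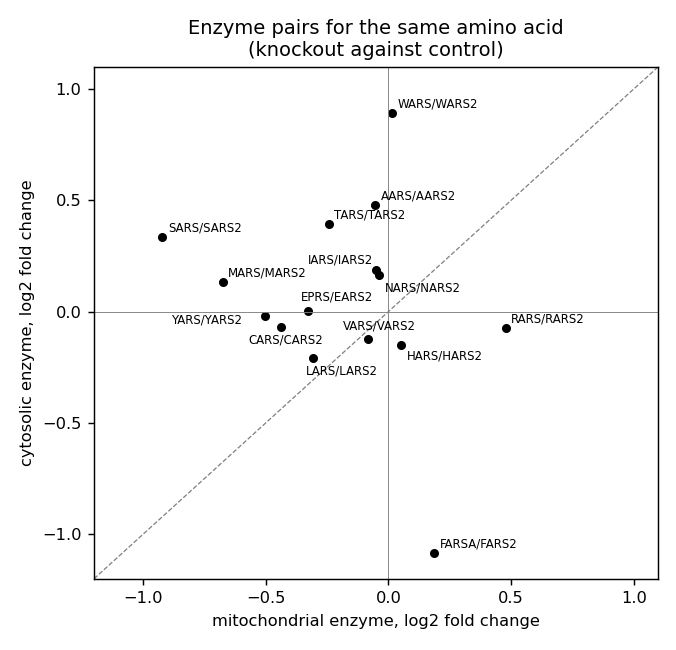
Log2 fold change of the cytosolic (vertical axis) against the mitochondrial enzyme gene (horizontal axis) for the 15 amino acids with both, with the line of equal change dashed. Of the 15 points, 11 lie above the line, and FARSA with FARS2 lies far below it. Values are as fitted, without chromosome centring.

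Levels were compared between genes as RPKM, reads per kilobase of exon scaled to library size, using exon lengths of GENCODE release 29. Deposited lengths were within 5% of these for 28 of the 36 genes, but were 6.10 times as long for VARS and 4.003 times as long for VARS2, and RPKM from them would put VARS at 7.45 in place of 45.4 and VARS2 at 3.55 in place of 14.2. In the control the cytosolic genes had a median of 75.1 RPKM, from 19.7 for HARS to 142 for FARSA, and the mitochondrial genes one of 12.4 RPKM, from 3.51 for FARS2 to 26.4 for IARS2. In each of the 15 pairs the cytosolic gene was higher, by 1.38 times (HARS over HARS2) to 40.4 times (FARSA over FARS2), with a median of 4.29 times. The FARS2 level used a longer annotated exon length than the deposited one, with which it was 7.23 RPKM. FARSB, the other subunit gene of the cytosolic phenylalanine enzyme, was at 35.5 RPKM. The ratio of 40.4 thus depends on that length and on taking FARSA.

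FARSA led the control order at 142 ± 3.17 RPKM (SD, n = 3), above QARS at 127 ± 6.88 RPKM, and these ranges did not overlap. GARS at 111 ± 10.6 RPKM and NARS at 111 ± 3.68 RPKM could not be ordered beyond their spread. MARS, KARS, WARS, EPRS, AARS, SARS and YARS followed between 84.9 and 73.5 RPKM, each differing from the next by less than the SD of either. At the lower end WARS2, EARS2 and PARS2 were at 5.91, 5.91 and 5.89 RPKM and could not be ordered either. In the knockout WARS, the seventh in the control, was the most abundant per length at 151 ± 15.2 RPKM, with GARS next at 132 ± 11.5 RPKM and SDs that overlapped, and FARSA was at 67.0 ± 10.2 RPKM.

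**Figure D5:**
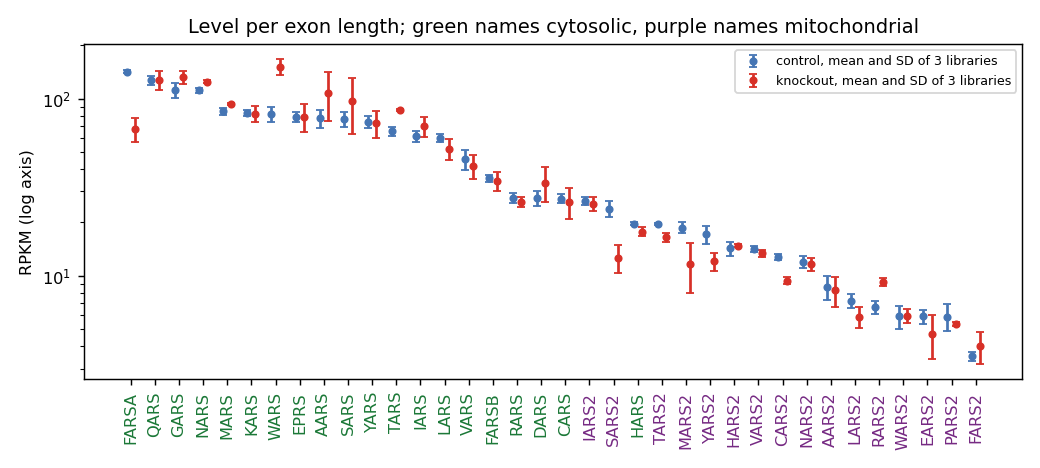
RPKM (log axis) of the 36 genes in the control and knockout, as mean and SD of 3 libraries, in order of the control level. Cytosolic genes (green names) hold the first 19 places, and FARSA and WARS change places most.

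Knockout libraries were more spread than control libraries for most of these genes. The SD of log2 CPM was larger in the knockout for 15 of 20 cytosolic and 11 of 16 mitochondrial genes, and for 11393 of all 16340 genes. MARS2, SARS, EARS2 and AARS had the widest knockout spread, with SDs of 0.50, 0.50, 0.45 and 0.42 against 0.10, 0.14, 0.13 and 0.18 in the control. Knockout replicate 3 was the library at the end of each of these 4, at the top for SARS and AARS and at the bottom for MARS2 and EARS2. It held the lowest value of 8 of the 16 mitochondrial genes (50%) and 3 of the 20 cytosolic genes (15%), against 28% of all genes. TARS, NARS and MARS were the tightest in the knockout, with SDs of 0.02, 0.03 and 0.01.

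Genes whose products work with the synthetases were followed as further lists. EEF1E1, a scaffold of the multi-synthetase complex, rose from 52.6 ± 3.40 to 105 ± 12.7 CPM (SD, n = 3 each, log2 0.99, edgeR adjusted p = 0.00198), and was at 0.56 with centring on its chromosome 6 (adjusted p = 0.0370). AIMP1 was at 0.41 (edgeR adjusted p = 0.0773) and AIMP2 at -0.02. Of 6 genes of the scaffold and of tRNA proofreading 1 rose and 5 did not pass, where 11.8% of all genes were called. None of the 4 genes of mitochondrial tRNA amidation and formylation and none of 10 mitochondrial translation factor genes passed. Of 76 mitochondrial ribosomal protein genes 3 rose and 4 fell, with a median of -0.01, against 6.19% higher and 5.63% lower of all genes. The 3 that rose were MRPS10, MRPL18 and MRPS18A, all on chromosome 6. Of those that fell, MRPL4, MRPS12 and MRPL34 lie on chromosome 19. MRPS2, the other that fell, lies on chromosome 9 (log2 -0.68, edgeR adjusted p = 0.00983). It was at -0.46 with centring (adjusted p = 0.0675). With chromosome centring none of the 76 passed, against 5.05% higher and 3.37% lower of all genes.

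Of the genes that make and mature tRNA, 1 passed the test. Among all genes 11.8% passed, 5.63% as lower in the knockout. None of 21 genes of RNA polymerase III transcription passed, with 16 negative values and a median of -0.25 (-0.14 with centring). Of 19 tested genes of tRNA maturation and export 1 fell, TSEN34, a subunit of the splicing endonuclease, from 19.7 ± 2.81 to 12.8 ± 0.853 CPM (SD, n = 3 each, edgeR adjusted p = 0.0371). TSEN34 lies on chromosome 19 and was at -0.16 with centring (adjusted p = 0.611). The genes of the 4 eIF2 kinases, which sense uncharged tRNA and other stresses, and GCN1, listed as GCN1L1, did not pass, with GCN1L1 at -0.56 (edgeR adjusted p = 0.10).

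Of 31 tested genes of the ATF4 amino acid response 6 rose and 1 fell, with a median of 0.23 and 25 positive values, against 6.19% higher and 5.63% lower of all genes. CTH, which makes cysteine from cystathionine, was at 26.5, 22.9 and 22.7 CPM in the control and 48.5, 46.0 and 55.4 CPM in the knockout (log2 1.06, edgeR adjusted p = 0.00182). DDIT3, which encodes the stress factor CHOP, rose from 112 ± 20.4 to 283 ± 116 CPM (SD, n = 3 each, edgeR adjusted p = 0.00809), and was highest in knockout replicate 3 at 407 CPM. ATF3, a transcription factor of the same response, was at 0.97 on the log2 scale (edgeR adjusted p = 0.00876). SLC1A5, a glutamine transporter on chromosome 19, fell by 0.81 on the log2 scale and was at -0.34 with centring (adjusted p = 0.238). ATF4 itself did not pass, at 0.51 (edgeR adjusted p = 0.118) and at 0.26 with centring (adjusted p = 0.450). Chromosome centring gave 7 genes of the list higher and 0 lower, against 5.05% higher and 3.37% lower of all genes. Beside this list, the cytosolic synthetases held 1 rise in 20, and their part in any common response was not tested.

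At an adjusted p under 0.05, the authors' deposited table has 1 cytosolic gene higher and 1 lower, and 1 mitochondrial gene higher and 2 lower. The share of all genes that it calls was not counted here, so these numbers stand without a background. The authors' deposited table gives WARS a log2 fold change of 0.86, FARSA one of -1.01 and SARS2 one of -0.85. The authors' deposited table adds MARS2 (-0.61, adjusted p = 0.0405) and RARS2 (0.47, adjusted p = 0.0492), which were outside the threshold in the edgeR fit.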

How the data were processed

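Poly(A) RNA was prepared with a kit that keeps strand, per the labels' protocols. Tools named in the submitters' processing notes are TopHat2, featureCounts of Subread, bcl2fastq, DESeq2 and DESeq, with hg19 (GRCh37) as the build. The sources used here do not give versions, annotation, strand setting or the treatment of reads that genes share. The authors' count table holds raw counts and a gene length for each gene. The authors' second table gives signal values (counts over size factors), log2 fold changes, a test score and p-values, and is used only where named.

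Groups came from the sample titles. Counts were filtered with filterByExpr, scaled by TMM and tested with group as the only term in R 4.3.3 by the quasi-likelihood test of edgeR 4.0.16 (with limma 3.58.1), adjusted by Benjamini and Hochberg. SEs come from the F statistic, and log2 CPM used a prior count of 2. Chromosomes (84.6% of tested genes), exon overlaps and exon lengths came from GENCODE release 29 by symbol, with older symbols through RefSeq, on a later build than the counts. RPKM had been planned with the deposited length, and the GENCODE length replaced it because of VARS and VARS2. In chromosome centring, the median deviation per library of genes with an average log2 CPM above 2 entered as an offset. The alternatives also included DESeq2 1.42.0. Scripts were tested on simulated data. All 36 members are named, and up to 4 called genes with the smallest p from each further list. MRPL18, MRPS18A, MRPL34, AIMP1, AIMP2, GCN1L1 and ATF4, and the genes overlapping members, were chosen after their values were seen. Members and lists were chosen with earlier results of these data known.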

Additional observations from a re-analysis of the deposited data

How the results depend on the processing

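The 14 alternatives changed the scaling (library totals or the size factors of DESeq2), the filter (none, or by CPM), the test (limma-voom or the Wald test of DESeq2), or the design (a replicate block, chromosome centring, and each library left out). FARSA was called in each, WARS and SARS2 in 13. WARS lost its call without control replicate 3, and SARS2 with chromosome centring. Mitochondrial genes called lower were 4 with DESeq2's Wald test (with 1 higher) and 2 each with no filter, the replicate block and chromosome centring, which also moved the mitochondrial median to -0.25. Over all genes, 1217 were lower and 1408 higher with DESeq2's Wald test, against 920 and 1012 in the main fit. Those lower over all genes numbered 1223 with no filter (1630 higher), 1004 with the replicate block and 551 with centring.

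Without single libraries, cytosolic genes called higher numbered 0 to 2 and mitochondrial genes called lower 1 to 2. Over all genes, calls then numbered 740 with control replicate 3 left out, 932 for control replicate 2, 1025 for knockout replicate 1 and up to 2488 for knockout replicate 2, with 440 to 1410 higher and 300 to 1078 lower.

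Members near 0 changed sign. EPRS was at -0.0087 with limma-voom, -0.011 with the replicate block and -0.014 with centring. KARS was at 0.0036 with library totals, 0.0042 with no filter and 0.078 with centring, YARS at 0.0045 with no filter, and FARS2 at -0.25 with centring. Leaving out libraries gave ranges of -0.18 to 0.094 for CARS, -0.13 to 0.13 for EPRS, -0.13 to 0.022 for FARSB, -0.072 to 0.060 for KARS, -0.062 to 0.11 for QARS, -0.23 to 0.00077 for VARS, -0.10 to 0.12 for YARS, -0.19 to 0.10 for AARS2, -0.10 to 0.0082 for IARS2, -0.10 to 0.052 for NARS2 and -0.058 to 0.14 for WARS2. The causes were not tested.

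Same-numbered libraries of the groups are not labelled as sharing more than a number. Their deviations from the group means correlated at -0.185, 0.416 and -0.095 across genes. Pairs of unlike number ran from -0.501 (control 1 with knockout 2) to 0.542 (control 1 with knockout 3). Whether libraries of the groups shared a batch cannot be told from these values. The replicate block called 2107 genes in place of 1932, and MARS2 was the mitochondrial gene it added. The lowest count of a member in a library was 589, for PARS2. Between libraries of 1 group, 66.5% to 82.7% of the genes with at least 200 counts in the pair differed beyond counting noise.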
